A study of Mus musculus with 103 samples.

Results

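The 9 genes described here belong to the retinoid pathway: Crabp1, Crabp2, Aldh1a1, Aldh1a2, Aldh1a3, Cyp26b1, Rarb, Rbp4 and Stra6. They were chosen by symbol, with earlier results of these data known, among them that Crabp1 and Crabp2 moved apart between deletions. They are 9 of the 23339 genes in the larger RNA-seq table of a study of how transcription, CTCF and Wapl place cohesin on the mouse genome. The cells were resting C57BL/6 mouse embryonic fibroblasts (MEFs) from E13.5 embryos, kept at rest for 10 days, with RNA measured by poly(A) RNA-seq and nascent transcription by GRO-seq. The 64 chromatin immunoprecipitation samples were not analysed here.

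The RNA-seq libraries form 12 groups, each treated group beside its own untreated one. Rosa26(CreER/+) cells that were Smc3(fl/fl) in clone 1 and Smc3(fl/-) in clones 2 to 4 gave 4 libraries after 4'hydroxytamoxifen for 2 to 3 days and 4 untreated libraries. Ctcf(fl/fl) clones 1 and 2 gave 2 libraries after Adeno-Cre, an adenovirus carrying the Cre recombinase, applied for 4 hours, and 2 untreated libraries. Ctcf(fl/fl) Wapl(fl/fl) cells gave 1 library of clone 4 after Adeno-Cre and untreated libraries of clones 3 and 4. Rosa26(CreER/+) Wapl(fl/-) clones 1 and 2 gave 2 libraries after 4'hydroxytamoxifen and 2 untreated libraries. The treatments alone were given to wild-type clones 2 and 3 (Adeno-Cre, 2 treated and 2 untreated libraries) and to Rosa26(CreER/+) clones 2 and 3, which carry no floxed gene (4'hydroxytamoxifen, 2 and 2). Replicates are clones of cultured cells, and the sources used here do not say whether clones came from separate embryos. The p-values rest on the spread between clones within groups, estimated for each gene over all 12 groups together. The main fit does not use the pairing of clones. The 1 Ctcf and Wapl-deleted library adds nothing to that spread.

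Retinol circulates bound to Rbp4, enters some cells through the membrane receptor Stra6 and is oxidised in a pair of steps to retinoic acid, the last of them by the retinaldehyde dehydrogenases Aldh1a1, Aldh1a2 and Aldh1a3. Inside the cell, retinoic acid is bound by Crabp1 and Crabp2. Crabp2 is known for delivering it to nuclear receptors and Crabp1 for holding it in the cytoplasm. Rarb is one of those receptors and a classic retinoic acid target gene, and Cyp26b1 hydroxylates retinoic acid for breakdown. Cohesin, of which Smc3 is a subunit, holds DNA in loops. CTCF is a DNA-binding protein at which cohesin halts, and Wapl releases cohesin from DNA.

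Promoter sequence is shown for Rarb and Crabp1, the receptor whose transcription is known to respond to retinoic acid and the binding protein whose mRNA differed most in the libraries labelled Smc3-deleted. Both are the 250 bases before the gene's start in the RefSeq promoter table (build GRCm38.p6), which held 12 start sites for 7 of the 9 genes and none for Crabp2 or Aldh1a3. Capitals in Rarb mark a direct repeat, 5 bases apart, of the 6-base motifs bound by retinoic acid receptors (AGGTCA or its variants AGTTCA and GGGTCA, and also GGTTCA, on either strand). Capitals in Crabp1 mark GGGCGG, the core of the motif bound by Sp1, on either strand; the 5 matches do not overlap each other.
Rarb, chr14:16575477-16575726, minus strand: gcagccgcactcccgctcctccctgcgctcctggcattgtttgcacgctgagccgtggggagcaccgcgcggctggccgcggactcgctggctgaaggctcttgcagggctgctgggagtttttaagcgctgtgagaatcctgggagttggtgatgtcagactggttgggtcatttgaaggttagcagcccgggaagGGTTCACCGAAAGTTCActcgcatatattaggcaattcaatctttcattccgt
Crabp1, chr9:54764498-54764747, plus strand: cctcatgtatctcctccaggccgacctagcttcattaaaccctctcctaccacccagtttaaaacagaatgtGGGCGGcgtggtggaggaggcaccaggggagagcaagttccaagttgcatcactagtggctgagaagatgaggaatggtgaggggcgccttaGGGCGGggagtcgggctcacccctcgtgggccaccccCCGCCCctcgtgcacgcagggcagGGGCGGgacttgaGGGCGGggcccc

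The Rarb repeat spans bases -53 to -37 from the start, and a repeat with this spacing was in 29 of 32851 windows of all genes (0.0883%) and in 1 of the 12 windows of the described genes. The same motifs 1 base apart (0.164% of all windows) or 2 bases apart (0.174%) were in none of the 12. GGGCGG was in 6 of the 12 windows, of Crabp1, Cyp26b1, Rbp4 and Stra6, against 32.7% of all windows. A CTCF core, written as CCNNNAGNNGGC and searched on both strands, was in none of the 12 and in 7.17% of all windows. These matches describe letters in a short window and no binding was measured there.

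The deposited values are RPKM, reads per kilobase of gene scaled to library depth. They were whole multiples of 1 read in all 18155 genes with 3 or more libraries above 0 (within 0.02 reads), which placed the depth at about 8500000 to 41100000 reads in genes per library. Tests used log2(RPKM + 1) in limma with all 27 libraries in 1 model and Benjamini-Hochberg adjustment over 12604 genes that reached 1 RPKM in at least 2 libraries. Log2 fold changes are on the log2(RPKM + 1) scale, and for genes near or under 1 RPKM they come out smaller than the ratio of the RPKM values. Ctcf mRNA fell in Ctcf-deleted cells (4.23 and 4.04 RPKM, against 13.2 and 11.6 RPKM untreated, adjusted p = 1.69e-06) and in the Ctcf and Wapl-deleted library (3.76 RPKM, against 9.26 and 12.5 RPKM untreated, adjusted p = 2.21e-05). Wapal, the files' symbol for Wapl, fell in that library as well, to 1.52 RPKM against 2.72 and 3.92 RPKM untreated (adjusted p = 0.0275), and stood at 0.780 and 0.914 RPKM in Wapl-deleted cells against 1.80 and 1.48 RPKM untreated (adjusted p = 0.167, and 0.0233 with the clone as a block). The mRNA of Smc3 does not check its own label: libraries labelled Smc3-deleted had 10.9 to 13.2 RPKM of it, against 7.62 to 10.46 RPKM untreated (adjusted p = 0.119, and 0.0421 with the clone as a block, in the upward direction). Fibroblast markers had a summed level of 6654 to 17335 RPKM over 10 genes, and at least 9 of the 10 reached 1 RPKM in each library.

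Of the 9 genes, 8 entered the test and Stra6 did not, as it reached 1 RPKM in 1 library. Of the 8, 5 passed the test in the Smc3 comparison, where 15% of all genes tested did: Aldh1a1 and Rarb rose, and Crabp1, Aldh1a3 and Cyp26b1 fell. In the combined Ctcf and Wapl deletion 4 of 8 passed, with 15.8% of all genes: Crabp2 rose, and Crabp1, Aldh1a1 and Aldh1a3 fell. All 4 of these calls were lost when only these 3 libraries entered the fit (adjusted p = 0.228 to 0.339). Ctcf deletion alone changed 1 of 8, Aldh1a3, which rose, with 7.66% of all genes. The median log2 fold change of the 8 was -0.58 in the Smc3 comparison, where that of all genes was 0.07, and -0.78 in the combined deletion, where that of all genes was 0.18 (-0.00 after median-of-ratios rescaling, which left these 4 calls in place). It was -0.05 for Ctcf deletion, against 0.05 for all genes. As the genes were chosen with earlier results of these data known, these counts and medians describe them and do not test them as a set.

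No member passed the limma test in Wapl-deleted cells (0 of 8, none at an unadjusted p under 0.05 and none in a voom fit of the recovered reads, with 2.43% of all genes called). None passed for Adeno-Cre in wild-type cells (0 of 8, 2 at an unadjusted p under 0.05, 1 in the voom fit, with 3.24% of all genes called). None passed for 4'hydroxytamoxifen in Cre-ER cells (0 of 8, none at an unadjusted p under 0.05 and none in the voom fit, with 0% of all genes called). With 2 libraries a group, these counts show what was not detectable between these clones.

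**Figure D1:**
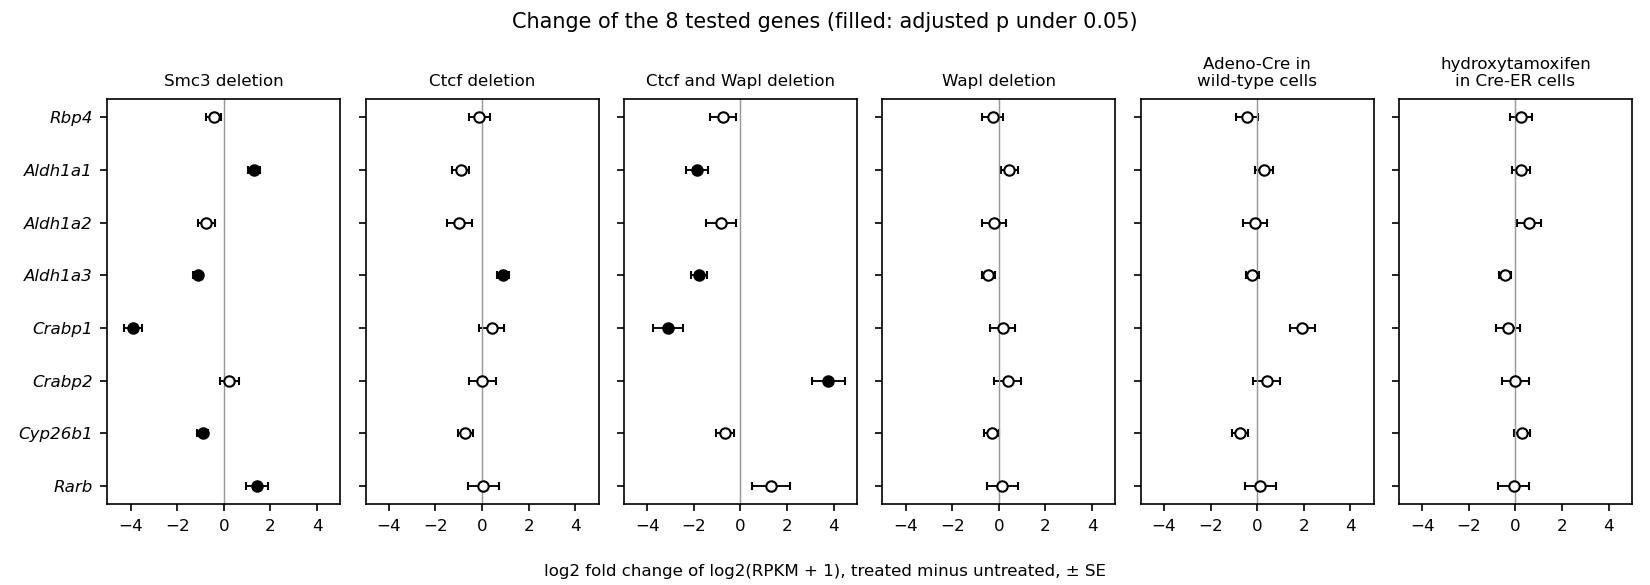
Log2 fold change of log2(RPKM + 1), treated minus untreated, for the 8 tested genes in each of the 6 comparisons. Points are limma estimates, bars are standard errors and filled points have an adjusted p under 0.05. Crabp1 lies at -3.90 in the Smc3 comparison and -3.11 in the combined deletion, and Crabp2 at 0.23 and 3.77.

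Crabp1, the cytoplasmic binding protein, fell in the libraries labelled Smc3-deleted in each of the 4 clones. It stood at 10.9, 9.39, 4.13 and 2.33 RPKM in those libraries of clones 1 to 4, against 134, 109, 66.2 and 106 RPKM in the untreated libraries. The highest treated library lay far below the lowest untreated one, and treated values rested on 213, 104, 75 and 37 reads. The group means were 6.70 ± 4.12 RPKM after 4'hydroxytamoxifen and 104 ± 28.0 RPKM untreated (SD, n = 4 each), a log2 fold change of -3.90 (SE 0.37, limma adjusted p = 3.49e-06). Within single clones the change was -5.001 to -3.40.

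Crabp1 also fell in the combined deletion. It had 0.715 RPKM, or 10 reads, in the Ctcf and Wapl-deleted library of clone 4, against 8.09 RPKM in untreated clone 4 and 23.2 RPKM in untreated clone 3. The treated value was the lowest of the 27 libraries. The log2 fold change was -3.11 (SE 0.65, adjusted p = 0.00328). It was -2.41 against the same clone alone, with an adjusted p of 0.02 with the clone as a block. The call was lost with voom weights on the recovered reads (adjusted p = 0.0869), a check chosen after seeing the data. With 1 treated library, the test assumes that it varies like the other groups.

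In the other 4 comparisons Crabp1 did not pass. In Ctcf-deleted clones 1 and 2 it had 51.1 and 28.8 RPKM, against 27.02 and 30.1 RPKM untreated, and the groups overlapped (log2 fold change 0.42, SE 0.53, adjusted p = 0.769). In Wapl-deleted cells it had 67.8 and 54.1 RPKM, against 46.0 and 62.5 RPKM untreated, and again the groups overlapped. Wild-type clones 2 and 3 given Adeno-Cre had 228 and 141 RPKM, against 36.5 and 57.6 RPKM untreated, so the virus alone went with higher values in both clones. That log2 fold change was 1.94 (SE 0.53, adjusted p = 0.0531, and 0.0123 with the clone as a block). In Cre-ER cells it had 28.7 and 29.3 RPKM after 4'hydroxytamoxifen, against 44.2 and 30.2 RPKM untreated, with both treated values under both untreated ones and the larger difference in clone 2.

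Crabp2, the binding protein that carries retinoic acid to nuclear receptors, moved apart from Crabp1 in the combined deletion and, by group mean, in the Smc3 comparison. Such a move was known when the genes were chosen, so it is a description. Within each Ctcf clone and each wild-type clone both genes changed in the same direction, and Wapl and Cre-ER clones were mixed. In the libraries labelled Smc3-deleted Crabp2 had 40.9, 28.7, 25.1 and 15.9 RPKM, against 26.0, 23.9, 16.2 and 23.9 RPKM untreated. The groups overlapped, 3 of 4 clones were higher and the difference was not past the threshold (log2 fold change 0.23, SE 0.41, adjusted p = 0.773). In the Ctcf and Wapl-deleted library it reached 221 RPKM, or 3758 reads, against 36.1 RPKM in untreated clone 4 and 6.09 RPKM in untreated clone 3. That is the highest Crabp2 value of the 27 libraries, and the log2 fold change was 3.77 (SE 0.71, adjusted p = 0.00154). The untreated clones differed from each other, so the change was 2.58 within clone 4 (adjusted p = 0.00402 with the clone as a block) and 4.97 against clone 3 alone.

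Crabp2 did not pass in the remaining comparisons either. It had 14.5 and 4.88 RPKM in Ctcf-deleted clones, against 10.4 and 6.93 RPKM untreated, with clone 1 higher and clone 2 lower. Wapl-deleted cells had 20.5 and 12.3 RPKM, against 13.4 and 10.7 RPKM untreated. Wild-type cells had 20.9 and 30.9 RPKM after Adeno-Cre, against 16.1 and 22.1 RPKM untreated, with overlapping groups. Cre-ER cells had 4.14 and 6.01 RPKM after 4'hydroxytamoxifen, against 6.38 and 3.93 RPKM untreated, the lowest levels by group mean.

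Within a library, the ratio of Crabp1 to Crabp2 RPKM sets the 2 binding proteins against each other per gene length. It was 0.268, 0.328, 0.164 and 0.147 in the libraries labelled Smc3-deleted, against 5.15, 4.56, 4.09 and 4.42 untreated, so that Crabp2 exceeded Crabp1 in each treated library and in no untreated one. It was 0.00324 in the Ctcf and Wapl-deleted library of clone 4, against 0.224 in untreated clone 4 and 3.81 in untreated clone 3. Untreated clone 4 was thus already on the Crabp2 side. The other 16 libraries lay between 2.27 and 10.96.

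**Figure D2:**
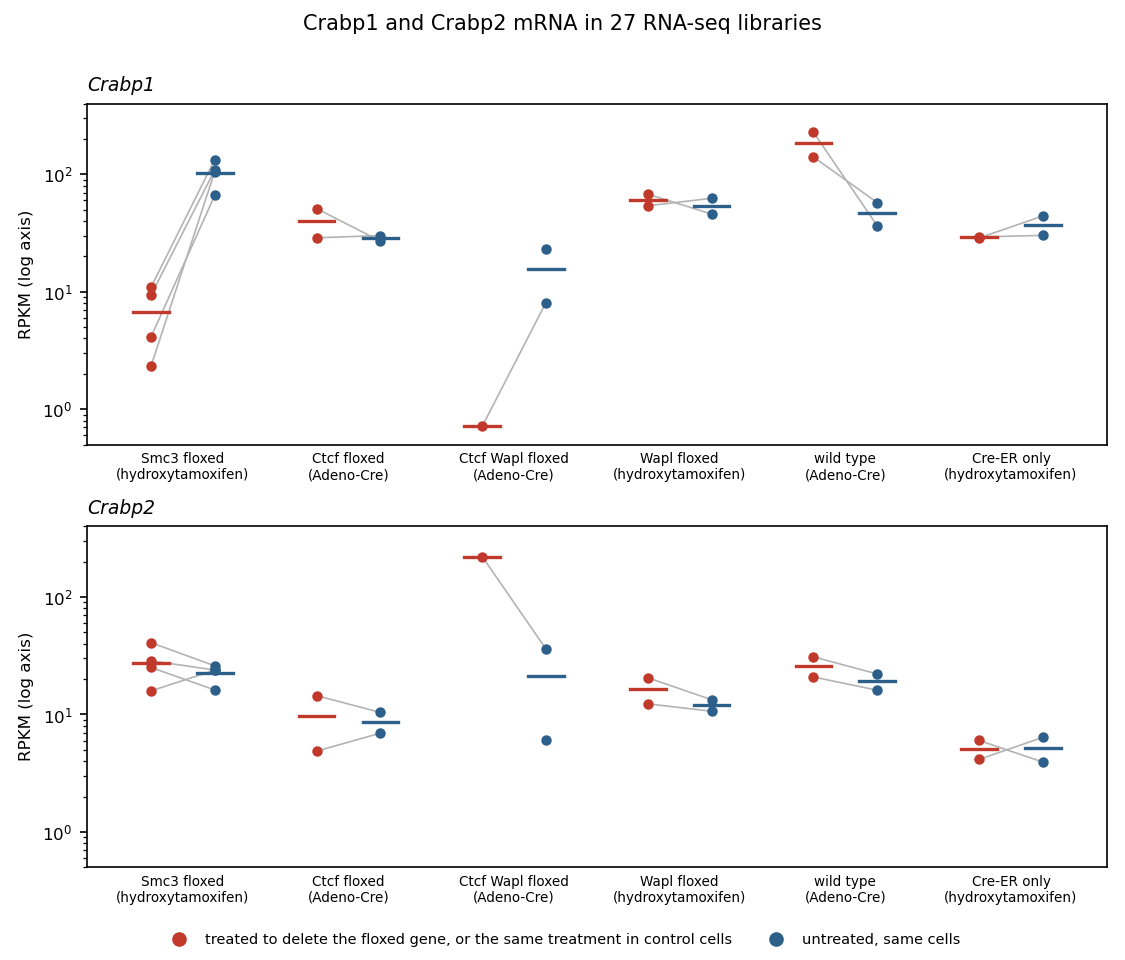
RPKM of Crabp1 and Crabp2 on a log axis, 1 point per library, with treated libraries left of their untreated group in each pair. Crabp1 is lowest in the Ctcf and Wapl-deleted library (0.715), the 4 libraries labelled Smc3-deleted (2.33 to 10.9) lie below their untreated group, and Crabp2 is highest in the Ctcf and Wapl-deleted library (221).

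Ordered by group mean, Crabp1 was highest in wild-type cells after Adeno-Cre (185 RPKM), whose lower library lay above the highest of the next group, untreated Smc3 floxed cells (104 RPKM). From there to untreated Wapl, wild-type and Ctcf-deleted cells (54.3, 47.05 and 39.98 RPKM) neighbouring groups overlapped. Untreated Ctcf and Wapl floxed cells (15.7 RPKM), libraries labelled Smc3-deleted (6.70 RPKM) and the Ctcf and Wapl-deleted library (0.715 RPKM) closed the order. For Crabp2 the Ctcf and Wapl-deleted library stood alone above libraries labelled Smc3-deleted (27.6 RPKM), and each of the next groups overlapped its neighbour down to untreated Ctcf floxed cells (8.67 RPKM). Cre-ER cells, after 4'hydroxytamoxifen (5.07 RPKM) and untreated (5.16 RPKM), were lowest and overlapped each other.

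Aldh1a1, a retinaldehyde dehydrogenase, rose in the libraries labelled Smc3-deleted and fell in the combined deletion. It had 13.4, 13.2, 31.8 and 32.7 RPKM in libraries labelled Smc3-deleted, against 8.13, 5.16, 10.4 and 8.85 RPKM untreated. The groups did not overlap and all 4 clones were higher (22.8 ± 10.9 RPKM against 8.13 ± 2.19 RPKM, SD, n = 4 each), a change of 1.29 on the log2 scale (SE 0.27, adjusted p = 0.00276, and 0.0566 with only these 8 libraries in the fit). The Ctcf and Wapl-deleted library had 2.40 RPKM, or 92 reads, against 10.7 RPKM in untreated clone 4 and 12.3 RPKM in untreated clone 3. It was the lowest of the 27 libraries, with a log2 fold change of -1.87 (SE 0.46, adjusted p = 0.00943), and an adjusted p of 0.0522 without untreated clone 3.

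Ctcf-deleted clones had less Aldh1a1 as well, 5.56 and 5.95 RPKM against 14.0 and 9.90 RPKM untreated, without overlap. That difference was not past the threshold (log2 fold change -0.92, SE 0.37, adjusted p = 0.16) except with the clone as a block (adjusted p = 0.0137). Wapl-deleted cells had 9.67 and 11.5 RPKM, against 7.91 and 6.97 RPKM untreated. Wild-type cells had 10.98 and 16.9 RPKM after Adeno-Cre, against 8.58 and 14.0 RPKM untreated, and Cre-ER cells 18.9 and 18.2 RPKM after 4'hydroxytamoxifen, against 15.0 and 15.9 RPKM untreated. None of these 3 differences passed.

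Aldh1a3, an enzyme of the same step, fell to near 0 in the libraries labelled Smc3-deleted. It had 0.112, 0.0393, 0.0240 and 0 RPKM there, from 10, 2, 2 and 0 reads, against 0.872, 1.70, 0.915 and 1.63 RPKM untreated. The 0 in clone 4 allows up to 0.0411 RPKM, taking 3 reads as the limit of a count of 0 for counting error alone. The groups did not overlap, and the log2 fold change was -1.11 (SE 0.19, adjusted p = 0.000652), or -3.26 with 0.1 added in place of 1. In the Ctcf and Wapl-deleted library it had 0.171 RPKM, against 4.26 RPKM in untreated clone 4 and 2.09 RPKM in untreated clone 3 (log2 fold change -1.78, SE 0.33, adjusted p = 0.00117, and -3.51 with 0.1 added).

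Ctcf deletion alone went the other way for Aldh1a3: 5.03 and 3.14 RPKM, against 2.44 and 1.08 RPKM untreated. Both treated libraries lay above both untreated ones (log2 fold change 0.90, SE 0.27, adjusted p = 0.0475, and 0.00499 with the clone as a block). The call is close to the threshold, and without treated clone 1 or untreated clone 2 the log2 fold change was 0.63 and 0.54 (adjusted p = 0.303 and 0.355). It was also lost with pseudocounts of 0.1 or 0.5, no filter, rescaling, the voom fit or only these 4 libraries (adjusted p = 0.0623 to 0.275). Wapl-deleted cells had 0.123 and 0.123 RPKM, against 0.268 and 0.856 RPKM untreated. Wild-type cells had 1.83 and 2.16 RPKM after Adeno-Cre, against 2.21 and 2.70 RPKM untreated, and Cre-ER cells 0.348 and 0.594 RPKM after 4'hydroxytamoxifen, against 0.967 and 1.03 RPKM untreated. Treated libraries were lower without overlap in these 3 comparisons, and none passed the test.

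Aldh1a2, the enzyme that makes most of the embryo's early retinoic acid, passed in no comparison. It had 1.75, 0.384, 3.43 and 0.577 RPKM in libraries labelled Smc3-deleted, against 3.52, 1.90, 3.88 and 2.24 RPKM untreated. Each clone was lower, while the groups overlapped (log2 fold change -0.74, SE 0.37, adjusted p = 0.2, and 0.0427 with the clone as a block). The Ctcf and Wapl-deleted library had 1.85 RPKM, against 5.96 and 2.64 RPKM in untreated clones 4 and 3, and Ctcf-deleted clones had 0.881 and 2.41 RPKM, against 3.01 and 5.16 RPKM untreated. Wapl-deleted cells had 3.45 and 2.49 RPKM, against 4.44 and 2.79 RPKM untreated. Its highest value, 12.3 RPKM, was in 1 Cre-ER library after 4'hydroxytamoxifen, whose fellow had 4.46 RPKM, against 5.86 and 3.62 RPKM untreated. Wild-type cells had 3.58 and 5.69 RPKM after Adeno-Cre, against 3.70 and 6.25 RPKM untreated.

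Cyp26b1, which starts the breakdown of retinoic acid, fell in the libraries labelled Smc3-deleted. It had 0.227, 0.261, 0.226 and 0.115 RPKM there, against 0.707, 1.34, 0.906 and 2.46 RPKM untreated. The groups did not overlap (0.207 ± 0.0637 RPKM against 1.35 ± 0.782 RPKM, SD, n = 4 each), and the change was -0.91 on the log2 scale (SE 0.23, adjusted p = 0.0112), or -2.12 with 0.1 added. It passed in no other comparison. Ctcf-deleted clones had 2.09 and 3.18 RPKM, against 5.07 and 4.71 RPKM untreated, and the Ctcf and Wapl-deleted library 2.18 RPKM, against 3.41 and 4.66 RPKM. Treated libraries were lower without overlap in both. Wild-type clones were lower too, at 2.69 and 5.68 RPKM after Adeno-Cre, against 5.42 and 9.65 RPKM untreated, with overlapping groups. Wapl-deleted cells had 0.458 and 0.813 RPKM, against 0.530 and 1.62 RPKM untreated, and Cre-ER cells 1.41 and 1.41 RPKM after 4'hydroxytamoxifen, against 1.11 and 0.860 RPKM untreated.

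Rarb, the retinoic acid receptor whose promoter is printed above, rose in the libraries labelled Smc3-deleted, with a wide spread among clones. It had 0.616, 0.866, 14.6 and 2.58 RPKM there, against 0.342, 0.351, 0.4999 and 0.159 RPKM untreated. Each treated library lay above every untreated one, and clone 3, with 998 reads, stood far above the others. The log2 fold change was 1.44 (SE 0.47, adjusted p = 0.0492, and 0.0228 with the clone as a block). Without treated clone 3 it was 0.73 (adjusted p = 0.0811), and the call was also lost when treated clone 4 or any 1 untreated library was left out (adjusted p = 0.0641 to 0.101) and with no filter, rescaling, the voom fit or only these 8 libraries (adjusted p = 0.0526 to 0.217).

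In the Ctcf and Wapl-deleted library Rarb had 3.47 RPKM, against 1.64 RPKM in untreated clone 4 and 0.206 RPKM in untreated clone 3 (log2 fold change 1.32, SE 0.82, adjusted p = 0.308). Elsewhere it stayed under 1 RPKM. Ctcf-deleted clones had 0.339 and 0.565 RPKM, against 0.238 and 0.590 RPKM untreated, and Wapl-deleted cells 0.368 and 0.151 RPKM, against 0.193 and 0.0655 RPKM untreated. Wild-type cells had 0.480 and 0.964 RPKM after Adeno-Cre, against 0.444 and 0.676 RPKM untreated, and Cre-ER cells 0.110 and 0.542 RPKM after 4'hydroxytamoxifen, against 0.4001 and 0.347 RPKM untreated. All 4 of these comparisons had overlapping groups.

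Rbp4, the serum carrier of retinol, reached 1 RPKM in 6 of 27 libraries and passed in no comparison. In the libraries labelled Smc3-deleted it rested on 3, 0, 1 and 2 reads, or 0.0881, 0, 0.0315 and 0.0719 RPKM, against 0.549, 0.301, 0.407 and 0.382 RPKM untreated. The groups did not overlap, and the 0 in clone 2 allows up to 0.155 RPKM. The log2 fold change was -0.43 (SE 0.33, adjusted p = 0.435, and 0.0384 with the clone as a block). The Ctcf and Wapl-deleted library had 0.123 RPKM, against 1.85 and 0.232 RPKM in untreated clones 4 and 3 (adjusted p = 0.416, and 0.00761 with the clone as a block). Ctcf-deleted clones had 0.706 and 2.35 RPKM, against 0.264 and 4.28 RPKM untreated, so that clones 1 and 2 moved in opposite directions. Wapl-deleted cells had 0.502 and 0.185 RPKM, against 0.704 and 0.515 RPKM untreated.

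Wild-type cells had 0.727 and 1.56 RPKM of Rbp4 after Adeno-Cre, against 1.53 and 2.21 RPKM untreated, and Cre-ER cells 0.440 and 0.399 RPKM after 4'hydroxytamoxifen, against 0.322 and 0.106 RPKM untreated. Stra6, the receptor that takes up retinol from Rbp4, was at 0 to 0.359 RPKM in 26 libraries and at 2.63 RPKM, or 181 reads, in the Ctcf and Wapl-deleted library, against 0.330 and 0.0225 RPKM in untreated clones 4 and 3. It was left out of the main test by the filter on low values. With no filter its log2 fold change in the combined deletion was 1.64. This rests on 1 treated library, with the values of all other libraries under the filter, so no p-value is given. The libraries labelled Smc3-deleted had 0.0732, 0.0735, 0.359 and 0.0640 RPKM of Stra6, against 0, 0.0179, 0.105 and 0.0303 RPKM untreated, where the 0 allows up to 0.0979 RPKM. Clone 3 was highest in both of these groups, and they overlapped.

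**Figure D3:**
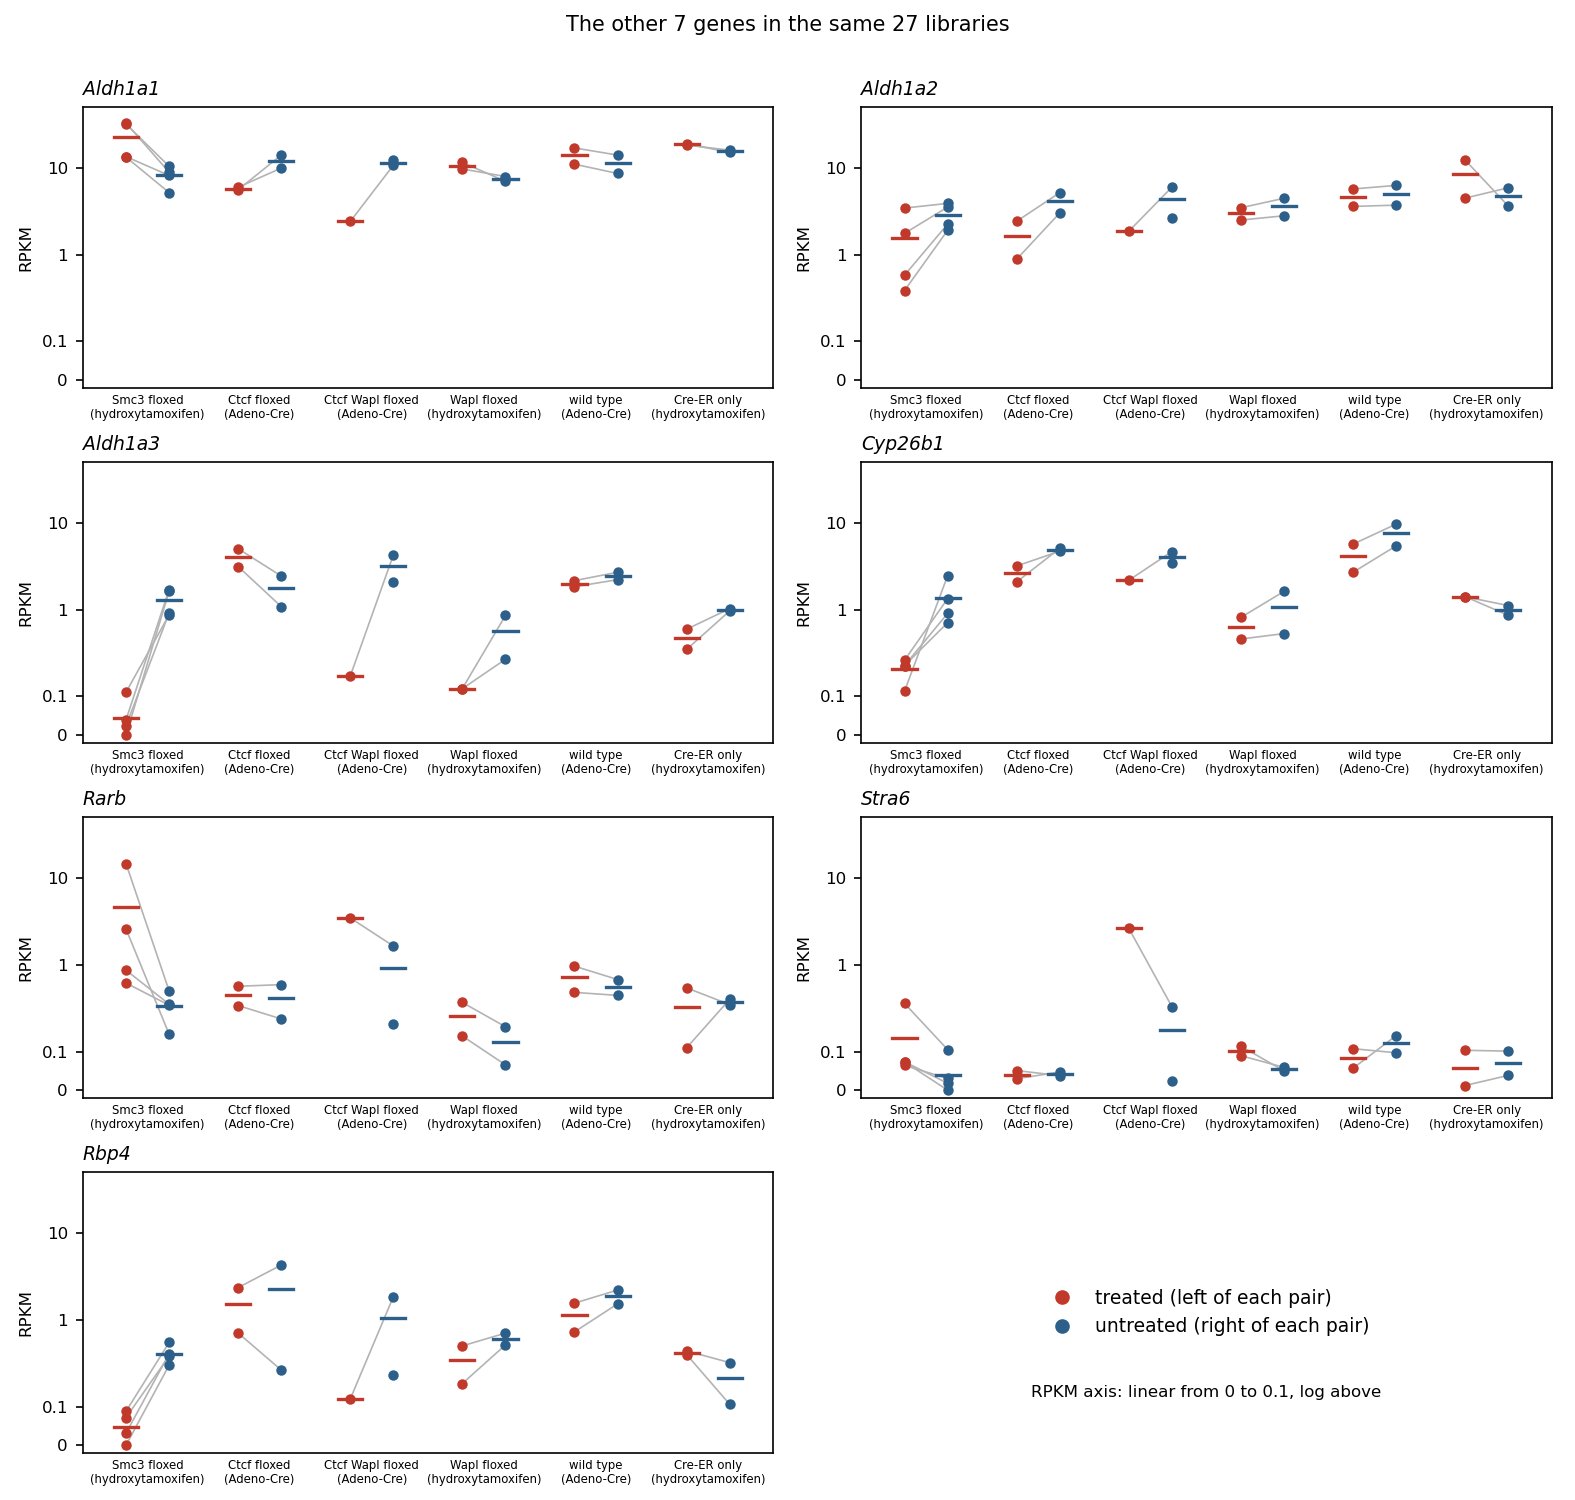
RPKM of the other 7 genes, 1 point per library, treated libraries left of their untreated group; the axis is linear to 0.1 RPKM and logarithmic above. In the libraries labelled Smc3-deleted Aldh1a1 lies above its untreated group and Aldh1a3 and Cyp26b1 below it, and Rarb of clone 3 stands at 14.6 RPKM.

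Tests of the differences between comparisons asked whether a gene moved differently in one deletion than in another, or than under the treatment alone. Relative to wild-type cells given Adeno-Cre, the combined deletion differed for 4 of 8 genes, with 3.87% of all genes: Crabp1 (-5.06, SE 0.84, adjusted p = 0.00173), Crabp2 (3.36, SE 0.92, adjusted p = 0.0489), Aldh1a1 (-2.16, SE 0.59, adjusted p = 0.0479) and Aldh1a3 (-1.58, SE 0.43, adjusted p = 0.0435), as log2 differences. The Crabp1 difference includes the wild-type log2 fold change of 1.94, in the opposite direction. The last 3 were lost when any 1 of the 4 wild-type libraries was left out (adjusted p up to 0.167), and all but Crabp2 were lost in the voom fit. Against the same wild-type libraries, which both differences share, Ctcf deletion alone differed for 0 of 8 genes by limma, with 1.46% of all genes (2 at an unadjusted p under 0.05, 0 in the voom fit). With the clone as a block 2 did, Aldh1a1 (-1.21, adjusted p = 0.0478) and Aldh1a3 (1.10, adjusted p = 0.029).

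Set against 4'hydroxytamoxifen in Cre-ER cells, the Smc3 comparison differed for 1 of 8 genes, Crabp1 (-3.58, SE 0.65, adjusted p = 0.0108), with 1.23% of all genes. Leaving out either treated Cre-ER clone or untreated clone 3 lost that call (adjusted p = 0.0672 to 0.0837), and the clone as a block added Aldh1a1 (1.05, adjusted p = 0.039) and Cyp26b1 (-1.19, adjusted p = 0.0314). Wapl deletion differed for 0 of 8 by limma, with 0.143% of all genes, none at an unadjusted p under 0.05 and none in the voom fit.

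Between deletions, Ctcf minus Smc3 differed for 3 of 8 genes, with 7.05% of all genes: Crabp1 (4.32, SE 0.65, adjusted p = 0.00049), Aldh1a3 (2.01, SE 0.33, adjusted p = 0.000959) and Aldh1a1 (-2.21, SE 0.46, adjusted p = 0.00631, and 0.0512 without untreated Ctcf clone 1). Smc3 minus Wapl differed for 1 of 8, Crabp1 (-4.08, SE 0.65, adjusted p = 0.0025), with 1.17% of all genes. The combined deletion minus Ctcf deletion differed for 2 of 8, with 1.38% of all genes: Aldh1a3 (-2.68, SE 0.43, adjusted p = 0.00228) and Crabp1 (-3.53, SE 0.84, adjusted p = 0.0449). The Crabp1 call was lost with the clone as a block (adjusted p = 0.0629), in the voom fit (adjusted p = 0.223) and without any 1 of the Ctcf libraries (adjusted p = 0.0632 to 0.132), and Crabp2 (3.77, SE 0.92, adjusted p = 0.0514) passed with it (adjusted p = 0.033). The Smc3 and Ctcf libraries enter several of these differences, and treatments differ between deletions, with 4'hydroxytamoxifen for Smc3 and Wapl and Adeno-Cre for the others.

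Cell type markers moved with the Smc3 comparison. The 10 fibroblast markers summed to 9099 to 12657 RPKM in the libraries labelled Smc3-deleted, against 11355 to 16248 RPKM untreated, lower in each clone, and Col1a1 fell (adjusted p = 0.0215; 1 of 10 called, and 4 of 10 with the clone as a block). The summed level of 7 neural crest and neural markers was 22.7, 12.1, 9.55 and 5.93 RPKM in the libraries labelled Smc3-deleted of clones 1 to 4, the same order as Crabp1, against 27.2 to 36.7 RPKM untreated. Of the 5 tested, Ncam1, Sox10 and Foxd3 fell, and 1 or 2 of the 7 were at 0 in each library. The 8 endothelial markers summed to 11.005, 3.18, 3.02 and 1.5003 RPKM in clones 1 to 4, which is the order of Crabp1 as well, against 12.5 to 22.1 RPKM untreated. Of 5 tested, Flt1 and Egfl7 fell, and 4 passed with the clone as a block. Fibroblast, macrophage and mesothelial sums did not follow this order, which rests on 4 libraries. Flt1 alone averaged 11.3 RPKM untreated and Ncam1 21.4 RPKM, so the endothelial and neural sums rest largely on 1 gene each. No endothelial marker reached 1 RPKM in treated clones 2 to 4. The 10 macrophage markers summed to 24.4 to 237 RPKM, against 36.7 to 1423 RPKM untreated, with none of 10 past the limma test (1 at an unadjusted p under 0.05, none in the voom fit, 7 with the clone as a block). The 6 mesothelial markers summed to 120 to 191 RPKM, against 91.4 to 194 RPKM untreated. Of all 12604 genes tested in the Smc3 comparison, 15% were called by limma and 4616 genes with the clone as a block. In bulk RNA, fewer cells of a type and less RNA per cell cannot be told apart, and the part of these cell types in the results on Crabp1, Aldh1a3 and Cyp26b1 was not tested.

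In the Ctcf and Wapl-deleted library the 10 fibroblast markers summed to 6654 RPKM, against 7464 and 12583 RPKM untreated, and Pdgfra, Pdgfrb and Col1a2 fell, Pdgfra not with the clone as a block (adjusted p = 0.0939). The 6 mesothelial markers summed to 65.2 RPKM, against 82.6 to 133 RPKM untreated, with Upk1b, Upk3b and Lrrn4 lower and Krt19 higher past the test. Krt19 alone gave 47.7 RPKM of that sum, against a mean of 6.45 RPKM untreated. The neural markers summed to 15.6 RPKM, against 22.1 to 26.0 RPKM untreated, and the endothelial ones to 10.3 RPKM, against 20.8 to 39.7 RPKM untreated, with Flt1 lower and Egfl7 higher past the test, neither of them with the clone as a block (adjusted p = 0.24 and 0.0923). Macrophage markers summed to 465 RPKM, against 81.3 to 624 RPKM untreated. The median log2 fold change of the 10 fibroblast markers was -1.14, against 0.18 for all genes, a larger fall than that of the sums. In this comparison 15.8% of all genes were called. The part of these cell types in the results of this library was not tested.

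In Ctcf-deleted cells the 6 mesothelial markers summed to 16.02 and 29.9 RPKM, against 66.2 and 53.0 RPKM untreated (none called by limma, 3 at an unadjusted p under 0.05, none in the voom fit, 4 with the clone as a block). The 8 endothelial markers summed to 44.7 and 52.0 RPKM, against 31.2 and 38.1 RPKM untreated (0 of 5 tested called by limma, 2 at an unadjusted p under 0.05, none in the voom fit, 1 with the clone as a block). Fibroblast markers summed to 11956 and 9482 RPKM, against 10210 and 8787 RPKM untreated. Of all 12604 genes tested for Ctcf deletion, 7.66% were called by limma and 3155 genes with the clone as a block. The part of these cell types in the Aldh1a3 result was not tested.

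GRO-seq, in which nascent RNA is labelled with bromouridine, was deposited for Ctcf(fl/fl) Wapl(fl/fl) cells as 1 pooled column after Adeno-Cre and 1 pooled column untreated, each of clones 1 and 2, in TPM. There is no replicate, depth or test. Both columns sum to the same total, so TPM values are shares, and a change common to all genes would not show. Crabp2 had 21.6 TPM after Adeno-Cre, against 4.79 TPM untreated, and Crabp1 0.325 TPM, against 1.91 TPM. The 2 binding proteins thus lay on opposite sides, as in the RNA-seq library of clone 4. Among the 6 genes with 1 TPM in either column, those 2 and Aldh1a1 (1.63 TPM, against 4.57 TPM) were at least 2-fold apart on log2(TPM + 0.5), as were 33.2% of all such genes, whose median log2 fold was -0.65. The folds were 2.06 for Crabp2, -1.55 for Crabp1 and -1.25 for Aldh1a1.

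Of the other genes, Aldh1a3 had 0.316 TPM after Adeno-Cre, against 1.11 TPM untreated, a log2 fold of -0.98, or -1.54 and past 2-fold with 0.1 added in place of 0.5. Rarb had 1.68 TPM, against 1.36 TPM, and Cyp26b1 1.09 TPM, against 1.42 TPM. Aldh1a2 (0.319 TPM, against 0.894 TPM), Rbp4 (0.443 TPM, against 0.667 TPM) and Stra6 (0.758 TPM, against 0.487 TPM) were under 1 TPM in both columns. A pooled wild-type column held 4.40 TPM of Crabp2, 2.03 TPM of Aldh1a1 and 1.33 TPM of Crabp1. Its header does not name its libraries, and it was not brought to the total of the other columns. Its values are therefore not compared with theirs.

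The Adeno-Cre cells were also given DRB, which blocks the elongation of transcription, for 3.5 hours, and a further library was made 1 day after its removal, 1 library each with no clone named. Crabp2 had 16.02 TPM under DRB and 23.0 TPM 1 day after removal, after both columns were brought to the total of the pooled ones. Values are thus shares of a column, and a loss of nascent RNA common to all genes under DRB would not show. Rarb had 0.2797 TPM under DRB and 1.22 TPM after removal, against 1.68 TPM in Adeno-Cre cells without DRB. It was the one gene at least 2-fold apart between DRB and no DRB (1 of the 4 genes with 1 TPM in either column, with 50.2% of all such genes apart; log2 fold -1.49, median of all genes -0.65) and between removal and DRB (1 of 5, with 37.9% of all such genes apart; log2 fold 1.14, median 0.51). After removal, 0 of 5 were 2-fold from Adeno-Cre cells without DRB, where 16.5% of all such genes were. Aldh1a1 had 0.939 TPM under DRB and 1.04 TPM after removal, Cyp26b1 1.28 and 1.22 TPM, and Stra6 0.868 and 1.06 TPM. Crabp1 and Rbp4 were listed at 0 under DRB.

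**Figure D4:**
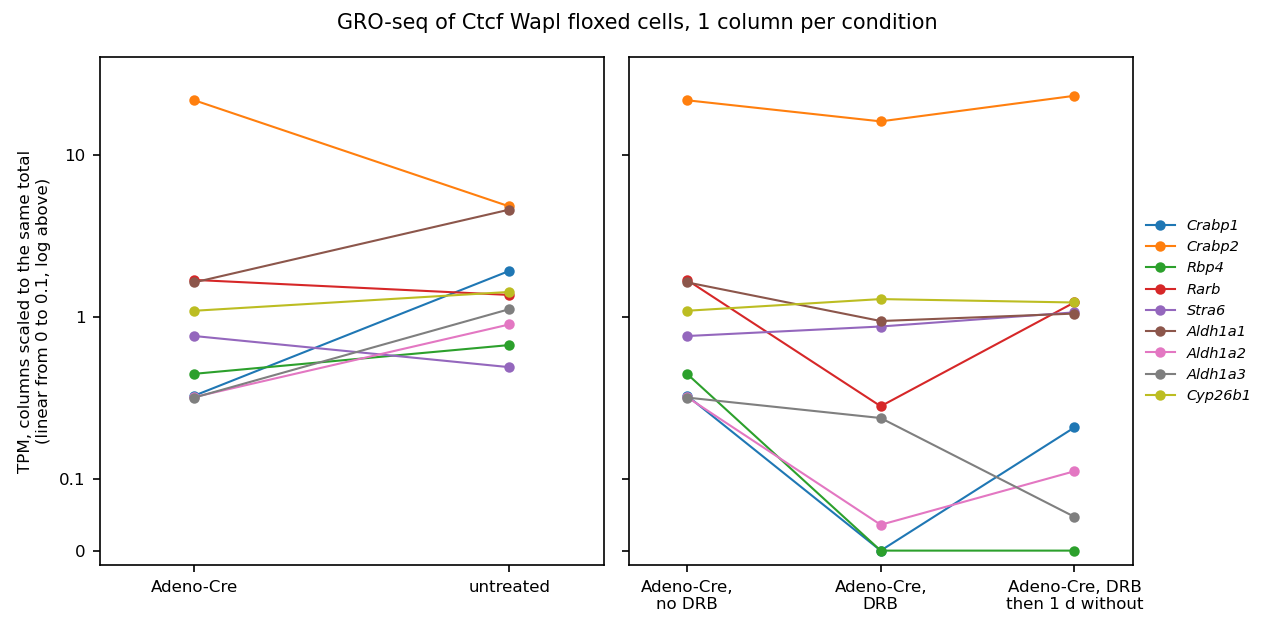
GRO-seq TPM of the 9 genes in Ctcf and Wapl floxed cells, 1 column per condition, joined by lines for reading; the axis is linear to 0.1 TPM and logarithmic above. Crabp2 is highest in each column (21.6 TPM after Adeno-Cre, 4.79 TPM untreated).

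A smaller RPKM table, whose name speaks of serum stimulation, held 2 libraries that both carry the labels of Ctcf and Wapl floxed clone 3 after Adeno-Cre. Its values kept the per-read steps of the larger table in 21.2% and 22.0% of genes, so they are given side by side and not compared with the larger table. One had 3.17 RPKM of Ctcf, 113 RPKM of Crabp2 and 5.95 RPKM of Crabp1, and the other 7.61 RPKM of Ctcf, 33.7 RPKM of Crabp2 and 19.2 RPKM of Crabp1. In the same order, Aldh1a1 had 3.43 and 7.55 RPKM, Aldh1a2 0.880 and 3.00 RPKM, and Aldh1a3 0.107 and 26.2 RPKM. Cyp26b1 had 2.00 and 6.96 RPKM, Rarb 1.02 and 0.196 RPKM, Stra6 0.845 and 0.0157 RPKM, and Rbp4 0.233 and 0.442 RPKM. Whether these libraries differ in serum treatment cannot be told from their labels.

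Other genes of the pathway were read from lists. Of 9 receptors and corepressors other than Rarb 8 were tested, and none passed the limma test in any of the 6 comparisons (0 to 2 per comparison at an unadjusted p under 0.05, 0 in the voom fit, 0 to 2 with the clone as a block). Of 20 genes listed for retinol oxidation and retinoic acid synthesis, a list that also holds retinal reductases, 12 were tested. Limma called 1 of them in Ctcf deletion (7.66% of all genes), 2 in the combined deletion (15.8%) and 1 in Wapl deletion (2.43%). It called 0 in the Smc3 comparison (15% of all genes), with 4 at an unadjusted p under 0.05 and 0 in the voom fit. Dhrs4, a retinal reductase, fell with Ctcf deletion (4.22 ± 1.401 RPKM, against 18.9 ± 4.13 RPKM untreated, SD, n = 2 each, adjusted p = 1.37e-05) and in the combined deletion (2.49 RPKM, against 16.4 RPKM, adjusted p = 1.28e-05).

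Dhrs3, another retinal reductase, fell in the combined deletion (11.8 RPKM, against 47.8 RPKM, adjusted p = 0.0224), and Adh5, an alcohol dehydrogenase, fell with Wapl deletion (26.1 RPKM, against 40.3 RPKM, adjusted p = 0.0105). The breakdown enzymes Cyp26a1 and Cyp26c1 were below the filter. Of 15 genes known to respond to retinoic acid 12 were tested, and 3 rose in the Smc3 comparison: Tshz1 (29.7 RPKM, against 16.3 RPKM, adjusted p = 0.0126), Meis1 (19.2 RPKM, against 10.3 RPKM, adjusted p = 0.00222) and Meis2 (11.9 RPKM, against 7.84 RPKM, adjusted p = 0.0492). That is 3 of 12, with 15% of all genes called, and a median log2 fold change of 0.08, against 0.07 for all genes. In the combined deletion 2 of 12 were called, with 15.8% of all genes: Zfp703 rose (57.0 RPKM, against 23.0 RPKM, adjusted p = 0.0261) and Tgm2 fell (6.23 RPKM, against 28.6 RPKM, adjusted p = 0.0459).

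Across the 27 libraries, the genes whose log2(RPKM + 1) followed Crabp1 most closely, out of 11787 compared, were Nov (Pearson r = 0.818, Spearman rho = 0.474), Dnm1 (0.816 and 0.702), Ptgir (0.807 and 0.492), Rgs2 (0.794 and 0.756) and Galnt10 (0.794 and 0.755). Those for Crabp2 were Cenpt (0.852 and 0.766), Tiam2 (0.845 and 0.828), Map2k3 (0.840 and 0.793), Ttll12 (0.833 and 0.723) and Rangap1 (0.830 and 0.747). Without the 2 libraries farthest from each gene's median, r was 0.647 to 0.763 for Crabp1 and 0.670 to 0.803 for Crabp2. These genes were picked as the highest of all compared, and libraries of one clone share their source, so the values are a description.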

How the data were processed

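Of 103 samples, 29 are RNA-seq and 10 GRO-seq, and the tables made from these were used here. The authors deposited RPKM per gene for RNA-seq and TPM per gene for GRO-seq, per the file headers; the submitters' processing notes name bedtools, HTSeq, Bowtie 0.12.5 and TopHat 1.3.1 and 1.4.1, with no role. Reads, 8500000 to 41100000 per library, were recovered from the RPKM steps. limma 3.58.1 (R 4.3.3) was run on log2(RPKM + 1) with a mean per group, trend and robust moderation, 15 residual degrees of freedom and a threshold of 0.05 after Benjamini-Hochberg adjustment; reads and tests were tested on simulated data.

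The 9 members and all lists were chosen with earlier results of these data known. Named besides them are the targeted genes, called genes of each list (at most 4 per list and comparison) and the 5 genes most like Crabp1 and Crabp2, leaving out predicted genes, RIKEN clones and small RNAs. The result of 1 other list is not reported here. Labels give treated and untreated libraries the same clone, which pairs them. Deviations of clone partners correlated at 0.47 to 0.76, and at -0.20 in Cre-ER cells. Pooled GRO-seq columns sum to 200000 TPM, and single-library columns were multiplied by 2. Floors take 3 reads and cover counting error only.

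Alternatives were other pseudocounts, filters and scaling, the clone block, the spread options, fewer groups, leaving out each library and, chosen after seeing the data, voom.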

Additional observations from a re-analysis of the deposited data

Results flagged for a closer look

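In the libraries labelled Smc3-deleted, the Rarb value of clone 3 (14.643 RPKM) and the Stra6 value of clone 3 (0.35875 RPKM) lay farther from their 3 fellows than Dixon's 95% limit. They are 2 of 18 such groups tested, and chance alone flags about 1 in 20.

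The combined Ctcf and Wapl deletion differed from Adeno-Cre in wild-type cells, by limma's test of the difference, for Crabp1 (-5.06), Crabp2 (3.36), Aldh1a1 (-2.16) and Aldh1a3 (-1.58), as log2 differences. All but Crabp1 were lost when any wild-type library was left out, and all but Crabp2 in the voom fit. The combined deletion differed from Ctcf deletion alone for Crabp1 (-3.53, lost with the clone as a block and in the voom fit) and Aldh1a3 (-2.68). The Smc3 comparison differed from 4'hydroxytamoxifen in Cre-ER cells for Crabp1 (-3.58, lost without some of the Cre-ER libraries) and from Wapl deletion for Crabp1 (-4.08). Ctcf deletion differed from the Smc3 comparison for Crabp1 (4.32), Aldh1a1 (-2.21, lost without untreated Ctcf clone 1) and Aldh1a3 (2.01).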

How the results depend on the processing

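The 21 calls of a member in a comparison or a difference gave 338 values under alternatives. Of these 270 stayed past the threshold, 68 did not and 0 changed direction; of 1342 values of the 83 uncalled pairs, 67 changed sign and 21 passed. Numbers of called members below are out of 8.

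With the clone as a replicate block (7 residual degrees of freedom), Ctcf deletion called 2 in place of 1, Adeno-Cre in wild-type cells 1 in place of 0, Ctcf deletion minus Adeno-Cre 2 in place of 0, and Smc3 minus 4'hydroxytamoxifen 3 in place of 1, or 4 with the Cre-ER clone numbers crossed. Over all genes the block called 3155 for Ctcf deletion (966 without it), 4616 for Smc3 (1887), 1839 for Wapl (306) and 2899 for Adeno-Cre (408). Other calls of the 8 members that the block changed are given beside each gene.

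The Ctcf call of 1 became 0 with pseudocounts of 0.1 and 0.5, no filter on low values, median-of-ratios rescaling, voom weights or only the groups of the comparison, and 0 to 1 with 1 library left out. The combined deletion's 4 became 0 with only its own groups, where 1 treated and 2 untreated libraries leave little residual spread to estimate from. Its difference from Adeno-Cre, 4 members, became 2 with a stricter filter and with rescaling, 1 with voom, 0 with only its groups and 1 to 4 with 1 library left out. Its difference from Ctcf deletion, 2 members, became 4 with no filter, 1 with a stricter filter, 1 with rescaling, 0 with only its groups and 1 to 2 with 1 library left out. Adeno-Cre in wild-type cells called 1 with voom. Smc3 minus 4'hydroxytamoxifen called 2 with a pseudocount of 0.1 and 0 to 1 with 1 library left out. In GRO-seq, removal against DRB called 0 in place of 1 with a pseudocount of 1. Adeno-Cre against untreated called 4 in place of 3 with a pseudocount of 0.1, and the log2 fold of Crabp1 was -2.24 with 0.1 and -1.14 with 1. The cause of these changes was not tested. Depth limits Rbp4, Stra6 and Aldh1a3, which had 0 reads in some libraries.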
